A study of Rattus norvegicus with 12 samples.

Results

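The transcripts described here encode the apolipoproteins Apoa1, Apoa2, Apoa4, Apoa5, Apob, Apoc2, Apoc3, Apoe and Apom, together with Mttp, the protein that loads lipid onto ApoB. They were chosen by name, with earlier results of these data known. Each probe set that the platform annotation gives to 1 of these 10 symbols and to no other was taken. This found 12 probe sets among 31042 that are not array controls. Apob and Apoe had 2 probe sets each and every other gene 1. RNA from rat liver was measured on 1-colour Affymetrix arrays, with 12 arrays and 1 animal per array. The Sprague Dawley arm held 3 germ-free rats (animals 1, 3 and 4), which are raised without microbes, and 3 conventional rats (animals 6, 7 and 8). The Han Wistar arm held 3 untreated control rats (animals 1, 2 and 3) and 3 rats that drank streptomycin and penicillin freely for 8 days (animals 13, 14 and 15). The labels name 4 mg/ml of streptomycin, 2 mg/ml of penicillin and a 10X stock, and it is unclear from them if those strengths hold for the stock or for the drinking bottle. Age, sex, diet and time of collection are not given in the sources used here. Strain and experiment cannot be told apart, so each treated group was set against the control of its own strain.

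Apolipoproteins are the protein coat of the particles that carry triglyceride and cholesterol in blood. The liver builds very low density lipoprotein (VLDL) around a single large molecule of ApoB, onto which Mttp transfers lipid as the protein enters the endoplasmic reticulum. ApoA1 and ApoA2 are the main proteins of high density lipoprotein (HDL), and the smaller apolipoproteins move between particles and steer how their triglyceride is broken down and how they are taken up. Rat liver also edits Apob mRNA, so it makes a shortened as well as a full-length ApoB.

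The deposited values are linear signals, and the trimmed mean of every array lay between 100.04 and 100.05. Differences below are of log2(signal + 16), tested with limma across all 15523 probe sets at or above the median signal and called at an adjusted p under 0.05. Of the 12 member probe sets 11 were tested. The fainter Apoe probe set (1371288_at, mean signal 6.38) fell under the filter: its signals were 8.1 to 20.1 in germ-free, 0.6 to 8.4 in conventional, 0.6 to 1.5 in control and 2.7 to 7.2 in antibiotic-treated livers. Hepatocyte transcripts matched the labelled tissue: all 8 markers on the array, albumin (Alb) among them, passed the filter. Of 8 enterocyte markers, 5 (Vil1, Cdx1, Alpi, Slc5a1 and Slc15a1) lay under it. The other 3 passed it, with signals over the 12 livers of 42.2 to 640.9 for Cdh17, 18.6 to 96.0 for Fabp2 and 10.8 to 31.7 for Cdx2. The intestine also makes Apoa4 and Apob, and a part of intestinal RNA in their values was not tested. In liver tissue, fewer cells of a type and less RNA per cell cannot be told apart.

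In germ-free livers, 5 of the 11 tested member probe sets were higher than in conventional livers and 0 were lower. Over all probe sets tested, 6.86% were called higher and 5.39% lower. The members called were Apoa2 and Apoa4 of HDL and chylomicrons, the lipase regulators Apoa5 and Apoc2, and 1 of the Apob probe sets, with increases of 1.23-fold to 1.80-fold. Mttp was 1.29-fold lower in germ-free livers and just missed the threshold. The median difference of the 11 probe sets was 0.22 on the log2 scale, against 0.05 over all probe sets tested. Germ-free and conventional signals did not overlap in 7 members that were higher in germ-free livers (16.9% of all probe sets tested) and in 1 that was lower (12.1% of all).

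**Figure D1:**
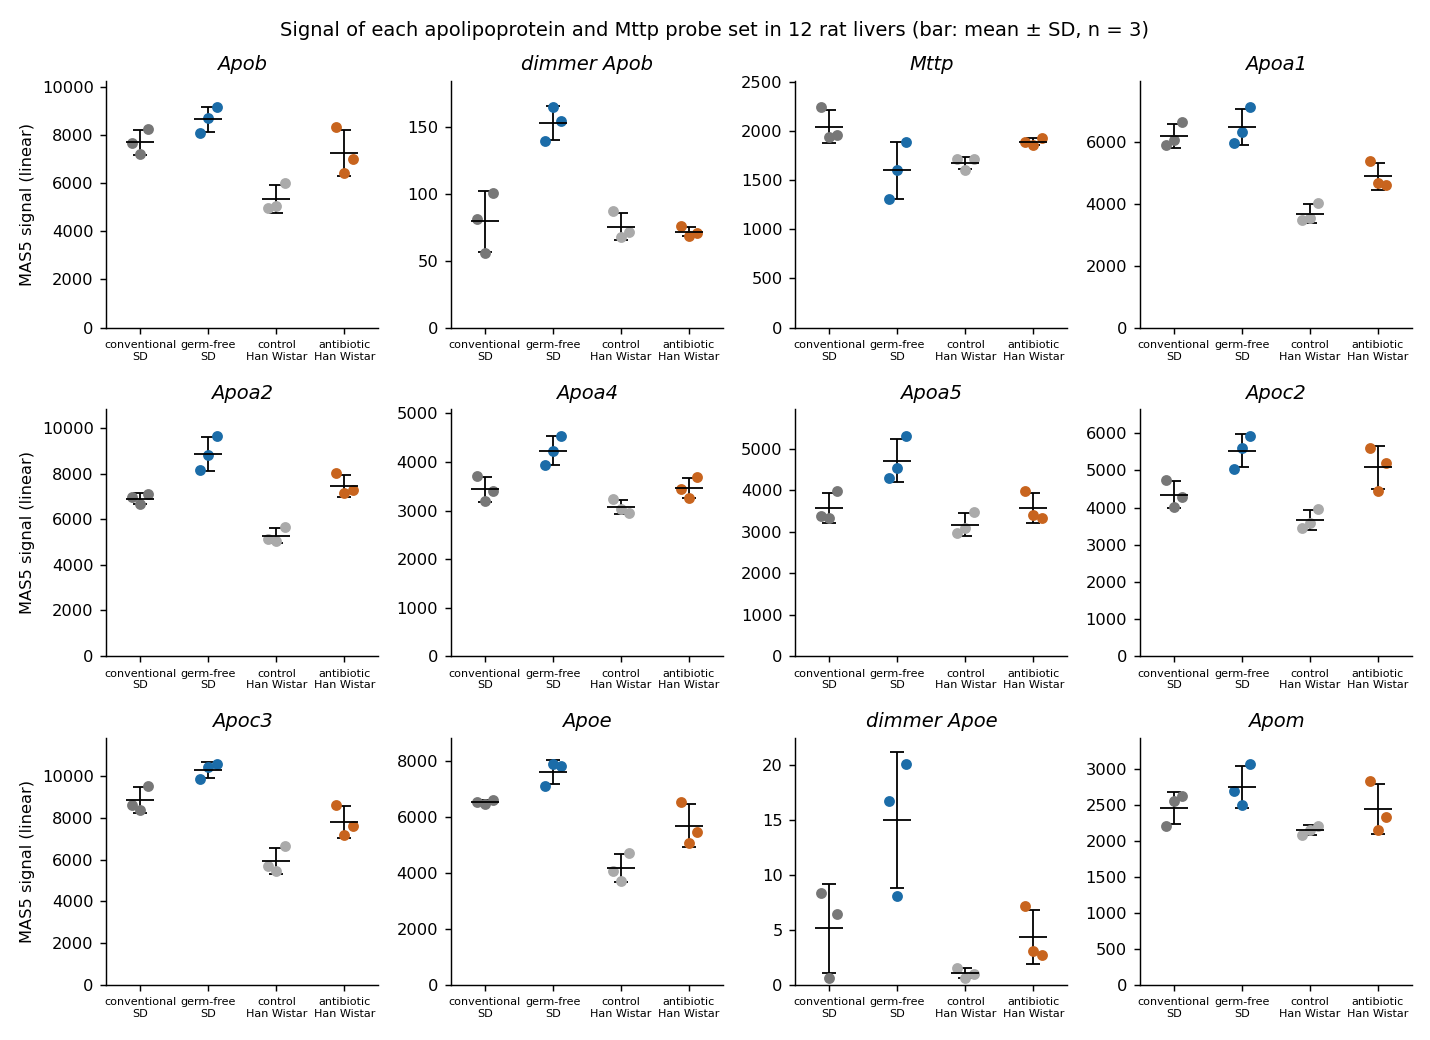
MAS5 signal (linear, from 0) of the 12 member probe sets in each of the 12 livers; points are animals and bars are the mean ± SD of 3 animals. All germ-free animals lie above all others for Apoa2, Apoa4, Apoa5, Apoc3, the brighter Apoe and the Apob probe set 1371157_at ("dimmer Apob"). For Mttp the germ-free mean is the lowest of the groups.

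The building block of VLDL, Apob, gave different results at its probe sets. At probe set 1388190_at the signals were 8092.4, 8712.2 and 9141.6 in germ-free livers and 7646.8, 7212.8 and 8245.4 in conventional livers. These ranges overlapped, and the difference of 0.17 ± 0.11 (log2 ± SE, n = 3 against 3) did not pass (limma, adjusted p = 0.340); its 95% confidence interval ran from -0.07 to 0.40. At probe set 1371157_at, called the dimmer Apob probe set below, the signals were 139.7, 165.0 and 154.9 in germ-free livers and 81.7, 55.9 and 101.1 in conventional livers. Every germ-free animal lay above every conventional animal there. The difference was 0.85 ± 0.16 on the log2 scale (limma, adjusted p = 0.00360), a 1.80-fold rise. Within each array, the log2 value of the dimmer probe set minus that of 1388190_at was 0.68 higher in germ-free than in conventional livers. That shift reached an exact two-sided permutation p of 0.1, the smallest that 3 against 3 animals allow. The files do not say which part of the Apob transcript either probe set reads.

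Mttp carries lipid to ApoB. Its signals were 1303.8, 1604.3 and 1888.4 in germ-free livers, against 2239.4, 1937.7 and 1959.1 in conventional livers. All germ-free animals lay below all conventional ones, with germ-free animal 4 the nearest to them. The difference was -0.37 ± 0.12 on the log2 scale (limma, adjusted p = 0.0583; 95% confidence interval -0.62 to -0.11), so Mttp missed the threshold. Without germ-free animal 4 it was -0.49 and passed (adjusted p = 0.0174), and it also passed when each array was centred on its median (-0.47, adjusted p = 0.0213). Other fits moved it the other way: it was -0.23 without germ-free animal 1 (adjusted p = 0.174), -0.30 without conventional animal 6 (0.156) and -0.28 with array weights (0.0902). Of the 12 fits with an animal left out, 11 did not call it.

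Among the HDL proteins, Apoa2 was called and Apoa1 was not. Apoa2 signals were 8172.0, 8792.9 and 9648.5 in germ-free livers and 6970.8, 6653.3 and 7089.3 in conventional livers, with no overlap. Apoa2 rose by 0.36 ± 0.09 on the log2 scale (1.28-fold; limma, adjusted p = 0.0163). Apoa1, the main HDL protein and the activator of the cholesterol-esterifying enzyme LCAT, read 5968.8, 6326.3 and 7110.8 in germ-free livers and 5904.6, 6063.8 and 6639.9 in conventional livers. The Apoa1 groups overlapped, and the difference was 0.06 ± 0.10 (limma, adjusted p = 0.754), with a 95% confidence interval of -0.16 to 0.27. Its direction changed with the scaling, to -0.09 after quantile normalization and -0.05 after median centring. Apom, which carries sphingosine 1-phosphate on HDL, read 2691.9, 2493.9 and 3064.4 in germ-free livers and 2203.9, 2551.9 and 2621.0 in conventional livers. These overlapped too, with a difference of 0.16 ± 0.12 (limma, adjusted p = 0.398).

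Of the 5 apolipoproteins of triglyceride-rich particles, 3 passed. Apoa4, a coat protein of chylomicrons and VLDL, read 3947.6, 4217.5 and 4537.5 in germ-free livers and 3707.2, 3192.4 and 3411.1 in conventional livers. Apoa4 did not overlap between the groups and rose by 0.30 ± 0.09 on the log2 scale (limma, adjusted p = 0.0462). Apoa5, a liver protein that raises lipoprotein lipase activity, read 4301.0, 4532.5 and 5306.6 in germ-free livers and 3383.5, 3317.7 and 3977.3 in conventional livers. Every germ-free animal again lay above every conventional one, and the rise was 0.40 ± 0.11 (limma, adjusted p = 0.0316). Apoc2, the cofactor that lipoprotein lipase needs, read 5051.7, 5597.8 and 5930.0 in germ-free livers and 4730.1, 4014.1 and 4285.0 in conventional livers. Its groups were apart, with a rise of 0.35 ± 0.11 (limma, adjusted p = 0.0474).

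Apoc3 and Apoe were the members of this class that did not pass. Apoc3, which restrains lipoprotein lipase and particle uptake, read 9863.5, 10458.1 and 10574.2 in germ-free livers and 8646.4, 8399.4 and 9559.3 in conventional livers. Its groups were apart, but the difference was 0.22 ± 0.10 (limma, adjusted p = 0.164; 95% confidence interval 0.01 to 0.43). Apoe, the ligand by which the liver takes up particle remnants, read 7120.2, 7888.1 and 7823.6 in germ-free livers and 6547.9, 6466.9 and 6595.0 in conventional livers. The conventional values lay within a narrow band below the germ-free ones. The difference of 0.22 ± 0.11 did not pass (limma, adjusted p = 0.206), and it was -0.01 after quantile normalization.

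**Figure D2:**
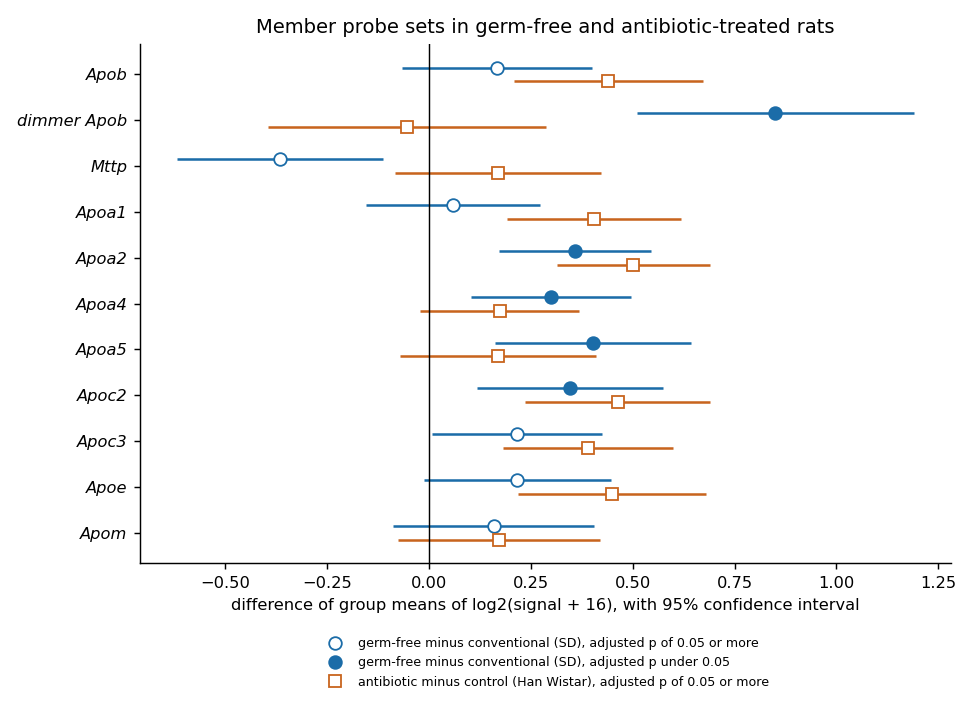
Difference of group means of log2(signal + 16) for the 11 tested member probe sets, with 95% confidence intervals from limma; circles are germ-free minus conventional, squares antibiotic minus control, and filled symbols passed at an adjusted p under 0.05. The 5 filled circles are the dimmer Apob, Apoa2, Apoa4, Apoa5 and Apoc2, and no square is filled.

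These germ-free calls sat close to the threshold, and the dimmer Apob probe set was the exception. Apoa2 no longer passed in limma with germ-free animal 3 (adjusted p = 0.0557), germ-free animal 4 (0.0680) or conventional animal 7 (0.0621) left out. Apoa5 was lost without germ-free animals 3 (0.0733) or 4 (0.122), or conventional animals 6 (0.0844) or 7 (0.108). Apoc2 was lost in 7 of 12 such fits, without germ-free 3 or 4, conventional 7 or 8, control 1 or 2, or antibiotic 15 (limma, adjusted p from 0.0597 to 0.156), and Apoa4 in 9 of 12, in all but those without germ-free 1, conventional 6 or antibiotic 14 (0.0522 to 0.159). The dimmer Apob probe set passed in all 12. The members called higher therefore fell from 5 to 1, the dimmer Apob, without germ-free 3, germ-free 4 or conventional 7, and to 3 without conventional 8, control 1, control 2 or antibiotic 15.

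The arrays themselves differed at their bright end, where 10 of the 11 tested members lie. The bright members ranked from 8 (Apoc3) to 548 (Mttp) from the brightest. The 538 other probe sets with a mean signal of at least 1803, that of Mttp, are thus not matched to each member in signal. Among these 538, 42 were called higher in germ-free livers and 42 lower. The groups did not overlap in 117 of them (21.7%) on the higher side and 78 on the lower. Their median germ-free difference was 0.07, and that of the 10 bright members was 0.22. After quantile normalization, which gives every array the same distribution of signals, these medians were 0.00 and 0.11. Apoa5 (0.33, adjusted p = 0.0108), Apoc2 (0.25, adjusted p = 0.0271) and the dimmer Apob (0.79, adjusted p = 0.00676) then still passed in limma, and Apoa2 (0.18, adjusted p = 0.0619) and Apoa4 (0.23, adjusted p = 0.0864) did not. Centring each array on its median moved the median of all probe sets from 0.05 to -0.05 and left the dimmer Apob (0.74, adjusted p = 0.00769) as the member called higher; it also moved the share of calls that were higher from 56.0% of 1901 to 31.7% of 2061. The 3' to 5' signal ratio of actin, a measure of RNA integrity, averaged 4.39 (SD 0.762) in the 3 germ-free animals and 5.37 (SD 0.839) in the 3 conventional ones. With that ratio as a covariate no member was called higher, while the differences were 0.67 for the dimmer Apob (adjusted p = 0.0502), 0.38 for Apoa5 (0.153), 0.31 for Apoa2 (0.131), 0.26 for Apoc2 (0.289) and 0.23 for Apoa4 (0.272). Mttp was called lower in that fit (-0.50, adjusted p = 0.0473). Among markers of other cells, 5 of 6 endothelial genes were called higher in germ-free livers (median 0.93; summed signal 1278.7 to 1803.4 against 697.2 to 879.5), and Clec4f, a Kupffer cell lectin, was 1 of 10 macrophage genes called, lower by a log2 difference of -0.64. The hepatocyte list summed to 60901.9 to 69673.3 in germ-free and 55813.7 to 61138.7 in conventional livers, with 0 of 8 genes called (median 0.22). Of the stellate (9 genes), bile duct (3), enterocyte (3) and adipocyte (1) markers tested, 0 were called, and the 6 lymphocyte markers on the array all lay under the filter. The part of RNA integrity, of the bright end and of cell makeup in the member differences was not tested.

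**Figure D3:**
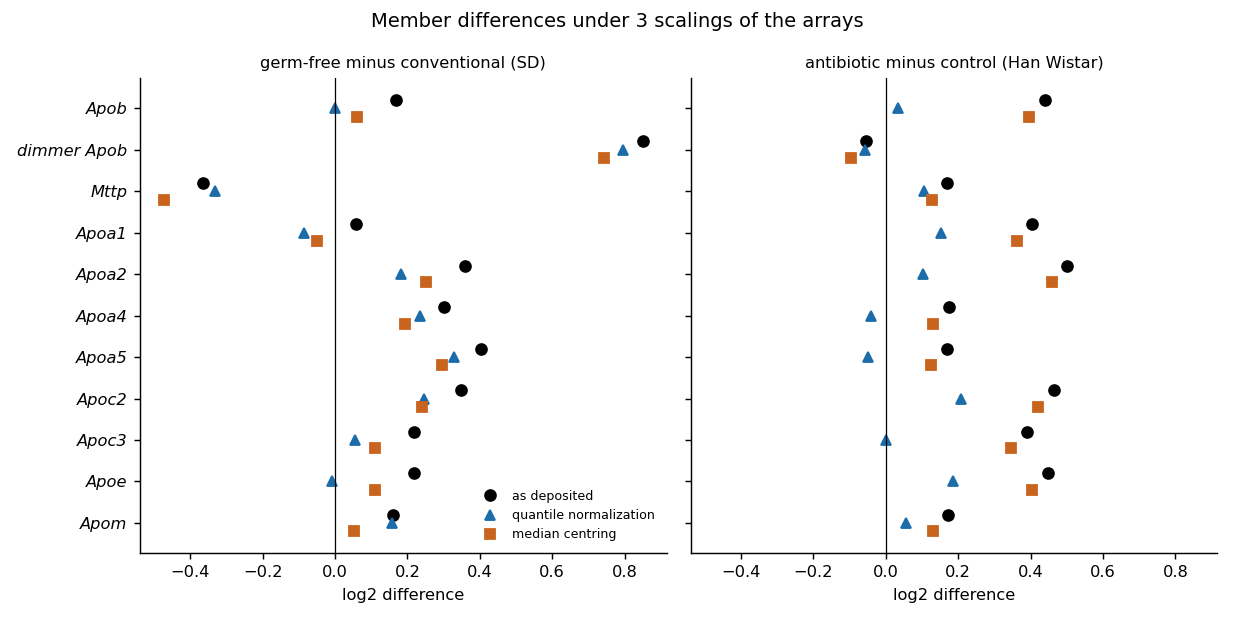
Log2 difference of each tested member under the deposited scaling (circles), quantile normalization (triangles) and median centring (squares), for both comparisons on a common axis. In germ-free livers Apoa1 turns negative under both other scalings and Apoe (-0.01) after quantile normalization; in antibiotic-treated livers quantile normalization brings every member to 0.21 or less, with Apoa4 (-0.04) and Apoa5 (-0.05) below 0.

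Promoter sequence is shown for Apoa4, Apoa5 and Apoc2, the called members for which the RefSeq table (build GRCr8) holds it. In the same table of genes Apoa1, Apoc3, Apoa4 and Apoa5 follow each other on chromosome 8, and Apoc2 lies beside Apoc4, and Apoe beside Apoc1, on chromosome 1. Each sequence is the 250 bases before the transcription start, 5′ to 3′ in the direction of the gene: chr8:55435529-55435778 (+ strand) for Apoa4, chr8:55457621-55457870 (+ strand) for Apoa5, at the more upstream of its 2 listed starts, and chr1:88462366-88462615 (- strand) for Apoc2. Capitals mark exact matches, on either strand, to AGGTCA (a nuclear receptor half-site), CAAAGTCCA (a site of the liver factor HNF4), CCAAT or TATAAA (the TATA box).
Apoa4 promoter: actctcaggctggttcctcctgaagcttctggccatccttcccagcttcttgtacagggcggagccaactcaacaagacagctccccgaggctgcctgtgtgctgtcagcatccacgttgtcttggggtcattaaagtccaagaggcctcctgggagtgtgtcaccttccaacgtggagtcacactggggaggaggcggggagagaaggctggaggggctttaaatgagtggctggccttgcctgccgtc
Apoa5 promoter: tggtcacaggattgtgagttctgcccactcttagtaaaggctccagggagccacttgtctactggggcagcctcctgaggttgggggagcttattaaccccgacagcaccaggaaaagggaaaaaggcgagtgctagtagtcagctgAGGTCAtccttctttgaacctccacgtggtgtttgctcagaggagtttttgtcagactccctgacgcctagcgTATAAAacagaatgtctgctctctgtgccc
Apoc2 promoter: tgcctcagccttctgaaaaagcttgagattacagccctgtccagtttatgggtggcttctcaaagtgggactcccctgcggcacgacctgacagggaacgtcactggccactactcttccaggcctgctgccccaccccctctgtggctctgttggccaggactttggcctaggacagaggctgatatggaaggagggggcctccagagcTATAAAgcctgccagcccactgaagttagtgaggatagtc
Apoa4 held 0 of these motifs in this window. Apoa5 held AGGTCA at bases 103 to 98 before the start and TATAAA at bases 30 to 25, and Apoc2 held TATAAA at bases 40 to 35. Over all 33469 promoter windows in the table, AGGTCA was found in 14.1%, TATAAA in 12.9%, CCAAT in 34.0% and CAAAGTCCA in 0.338%. Of the members not called, Apom held CCAAT 2 times, and Apoe held it 1 time at 1 of its 3 starts. A match of letters is a description and not a measured binding site.

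In antibiotic-treated livers, 0 of the 11 tested member probe sets passed the test against untreated Han Wistar controls. Over all probe sets 3 of 15523 passed, which is 0.0193%, and 1547 had an unadjusted p under 0.05. The members' values were nonetheless mostly above the controls: 6 of the 11 had an unadjusted p under 0.05, the median difference was 0.39 on the log2 scale against 0.01 over all probe sets tested, and 8 of 11 did not overlap with their controls on the higher side (9.57% of all probe sets tested). Other probe sets at least as bright as Mttp, the dimmest of the bright members, were also mostly above the controls (86.6% of 538, median 0.21). Of these 538, 228 (42.4%) did not overlap with the controls on the higher side and 8 on the lower. Quantile normalization lowered the members' differences and the median of the other bright probe sets, bringing Apoa4 and Apoa5 below 0.

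Among the particle-building genes, Apob at 1388190_at read 8320.3, 6421.1 and 7020.0 in antibiotic-treated livers and 4957.8, 5044.0 and 5989.4 in controls. The groups did not overlap, with antibiotic animal 13 standing highest; the difference was 0.44 ± 0.11 (limma, adjusted p = 0.175). The dimmer Apob probe set read 75.9, 69.0 and 71.0 against 87.1, 67.8 and 71.9. There the groups overlapped, and the difference was -0.05 ± 0.16 (limma, adjusted p = 0.958; 95% confidence interval -0.39 to 0.29). The within-array difference between these Apob probe sets was 0.49 lower on the log2 scale in antibiotic-treated than in control livers (-0.49; exact two-sided permutation p = 0.1, the smallest possible), the opposite sign to the germ-free shift. After quantile normalization the antibiotic differences of both probe sets lay near 0, at -0.06 for the dimmer one and 0.03 for 1388190_at. Mttp read 1885.3, 1854.8 and 1927.7 against 1715.4, 1607.8 and 1711.6, which is apart on the higher side, with a difference of 0.17 ± 0.12 (limma, adjusted p = 0.683).

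Of the HDL proteins, Apoa1 read 5390.4, 4665.5 and 4591.7 in antibiotic-treated livers and 3466.9, 3545.6 and 4034.1 in controls. Its groups were apart, with a difference of 0.41 ± 0.10 (limma, adjusted p = 0.175). Apoa2 read 8012.0, 7126.9 and 7268.2 against 5118.9, 5048.7 and 5641.1. Apoa2 had the smallest p of the members, with a difference of 0.50 ± 0.09 (limma, adjusted p = 0.0867), and it passed in 1 of 24 alternatives, when arrays were weighted by their quality (adjusted p = 0.0223). Apom read 2836.1, 2157.4 and 2331.7 against 2081.6, 2157.6 and 2213.7, with antibiotic animal 14 inside the control range and a difference of 0.17 ± 0.12 (limma, adjusted p = 0.668).

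Of the apolipoproteins of triglyceride-rich particles, Apoc2 read 5592.2, 4448.8 and 5202.2 in antibiotic-treated livers against 3453.2, 3583.6 and 3975.0, and Apoe read 6550.8, 5056.5 and 5480.0 against 4075.9, 3717.7 and 4699.3. Both were apart from their controls, by 0.46 ± 0.11 for Apoc2 (limma, adjusted p = 0.168) and 0.45 ± 0.11 for Apoe (limma, adjusted p = 0.172). Apoc3 read 8632.4, 7162.0 and 7601.8 against 5714.9, 5477.6 and 6657.8, also apart, by 0.39 ± 0.10 (limma, adjusted p = 0.176). Apoa4 and Apoa5, which were called in germ-free livers, had smaller values here. Apoa4 read 3437.5, 3265.8 and 3693.0 against 3238.0, 3023.5 and 2946.9, narrowly apart, by 0.17 ± 0.09 (limma, adjusted p = 0.567), or -0.04 after quantile normalization. Apoa5 read 3981.6, 3409.8 and 3318.6 against 2958.2, 3079.0 and 3471.5, overlapping, by 0.17 ± 0.11 (limma, adjusted p = 0.665), or -0.05 after quantile normalization.

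Quantile normalization moved the antibiotic differences of the 10 bright members from a median of 0.40 to 0.08. It moved those of the other bright probe sets, which are not matched to the members in signal, from 0.21 to 0.00. Apob fell to 0.03 and Apoc3 to 0.00 on the log2 scale, while Apoc2 (0.21), Apoe (0.18) and Apoa1 (0.15) kept the highest values of the members. The signal that 0.1% of an array's probe sets exceed was 4827.1 to 5664.8 in controls and 6025.6 to 7407.2 in antibiotic-treated livers. The hepatocyte list summed to 37129.0 to 45197.8 in controls and 49010.9 to 60635.2 after antibiotics, with 0 of 8 genes called (median 0.41). Of the 10 macrophage markers 0 were called (median 0.50), and none of any other marker list. The actin ratio was 2.55 ± 0.123 in controls and 2.73 ± 0.131 after antibiotics (SD, n = 3). The part of the bright end in the member differences was not tested.

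**Figure D4:**
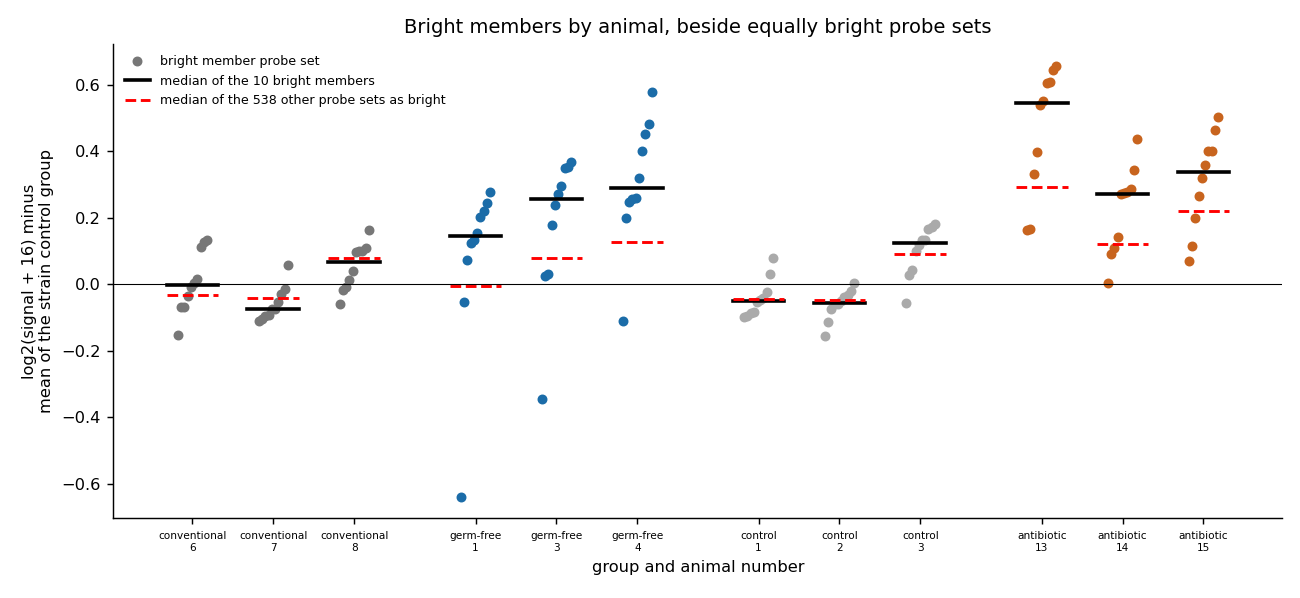
Each of the 10 bright members (points) in every animal, as log2(signal + 16) minus the mean of the control group of its strain. Black lines are the median of those members and dashed red lines the median of the 538 other probe sets at least as bright as Mttp. The antibiotic medians are 0.27 to 0.55 for the members and 0.12 to 0.29 for the other probe sets, and the lowest point of each germ-free animal is Mttp.

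In antibiotic animals 13, 14 and 15 all 10 bright members lay above the control mean, with medians of 0.55, 0.27 and 0.34. In germ-free animals 1, 3 and 4 the members above the conventional mean numbered 8, 9 and 9, with medians of 0.14, 0.26 and 0.29. Control animal 3 had 9 members above its own group's mean (median 0.13), conventional animal 7 had 1 (median -0.08), and conventional animal 6 was evenly split with 5 of 10. The medians of the other bright probe sets were 0.29, 0.12 and 0.22 in antibiotic animals 13, 14 and 15. They were -0.01, 0.08 and 0.13 in germ-free animals 1, 3 and 4, 0.09 in control animal 3 and -0.04 in conventional animal 7. By group means, 86.6% of these other probe sets lay above 0 after antibiotics and 60.6% in germ-free livers. The residual SD of the tested members, on the log2 scale, ran from 0.09 for Apoa2 and Apoa4 to 0.20 for the dimmer Apob, against a median of 0.18 over all probe sets tested.

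Subtracting the antibiotic from the germ-free difference called 1 of 11 members, the dimmer Apob, with 781 of all probe sets called in either direction (5.03%). Among the 538 other probe sets at least as bright as Mttp, 5 were called higher and 47 lower. Their median was -0.16, as was that of the 10 bright members. The dimmer Apob differed by 0.90 ± 0.22 on the log2 scale (limma, adjusted p = 0.0356; 95% confidence interval 0.42 to 1.38). This call was lost in 10 of 12 fits with an animal left out, in all but those without germ-free 1 or conventional 8 (adjusted p from 0.0504 to 0.0870). Mttp was lower in every germ-free animal than in any conventional one, and higher in every antibiotic-treated animal than in any Han Wistar control. Its difference of -0.53 ± 0.17 did not pass (limma, adjusted p = 0.0841). This difference passed in 1 of the 12 fits with an animal left out, that without germ-free animal 4 (-0.66, limma, adjusted p = 0.0302). It was nearest to 0 without germ-free animal 1 (-0.40, limma, adjusted p = 0.119). For Apoa1 it was -0.35 ± 0.14 (limma, adjusted p = 0.183; 95% confidence interval -0.65 to -0.04). Of the remaining 8 members not one passed. Because each strain was a separate experiment, a difference in response between the treatments cannot be told apart from one between strains.

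Over the 4 groups the germ-free mean was the highest for every member probe set except Mttp. The control mean was the lowest for all but Mttp, where it was the germ-free mean, and the dimmer Apob, where it was the antibiotic mean. Mean signals of Apoa2 were 8871.1 ± 741 (SD, n = 3) in germ-free, 7469.0 ± 476 in antibiotic-treated, 6904.5 ± 225 in conventional and 5269.6 ± 324 in control livers, and no neighbours in that order overlapped. The order was the same for Apoa4, Apoa5 and Apoc2, where antibiotic-treated and conventional livers overlapped. Conventional and control livers overlapped as well for Apoa4 and Apoa5, and germ-free and antibiotic-treated livers for Apoc2. For Apoa1, Apob at 1388190_at, Apoc3, Apoe and Apom the order was germ-free, conventional, antibiotic-treated, control; conventional and antibiotic-treated livers overlapped in all of these but Apoa1. For Mttp the order ran from conventional (2045.4 ± 168) through antibiotic-treated (1889.3 ± 36.6) and control (1678.3 ± 61.1) to germ-free (1598.8 ± 292), the last pair overlapping. The bright end of the arrays differed as well. The signal that 0.1% of an array's probe sets exceed was 7614.7 to 8768.2 in germ-free and 6840.8 to 7426.9 in conventional livers. It was 6025.6 to 7407.2 in antibiotic-treated and 4827.1 to 5664.8 in control livers. The actin ratio averaged 4.39 in germ-free, 5.37 in conventional, 2.73 in antibiotic-treated and 2.55 in control livers. The part of these in the members' order was not tested. Levels across strains are a description only.

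Genes around the members were read from 8 pathway lists of 98 genes, 77 of them tested with 1 probe set per gene. None passed in antibiotic-treated livers, where 14 had an unadjusted p under 0.05 and the list medians lay between 0.01 and 0.28. In germ-free livers the 13 tested genes of particle assembly and export had 0 higher and 1 lower (list median -0.19). The gene that fell was Sar1b, the small GTPase of the vesicles that carry new lipoproteins out of the endoplasmic reticulum, by 0.40 on the log2 scale (-0.40 ± 0.09; limma, adjusted p = 0.0101). Of 7 genes of the Apob mRNA editing machinery, Celf2 was higher (0.61 ± 0.16; limma, adjusted p = 0.0211; other probe set 0.47, adjusted p = 0.0961) and Hnrnpab lower (-0.41 ± 0.11; limma, adjusted p = 0.0302), both RNA-binding proteins (list median 0.19). Of 11 other apolipoproteins and particle-borne proteins 0 were called (median 0.21), and of 7 genes of HDL maturation 0 (median 0.17).

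Of the 7 receptor and uptake genes tested, 3 were higher in germ-free livers and 0 lower (median 0.25). Sdc1, a heparan sulphate proteoglycan that binds remnants, rose by 0.67 ± 0.15 (limma, adjusted p = 0.00907), although its other tested probe set did not pass (0.29, adjusted p = 0.169). Mylip, the ligase that sends the LDL receptor to degradation, rose by 0.65 ± 0.15 (limma, adjusted p = 0.00980), and Ndst1, which sulphates heparan chains, by 0.43 ± 0.13 (limma, adjusted p = 0.0394). Mylip and Sdc1 bear on uptake in different ways, the first lowering and the other serving it. Of 6 genes of plasma triglyceride lipolysis, Fgf21, a liver hormone of lipid metabolism, was lower (-1.18 ± 0.28; limma, adjusted p = 0.0142) and 0 were higher (median 0.06). Fgf21, Mylip, Ndst1 and Celf2 were too faint to pass a filter at the 75th percentile of signal. Over the 23 alternatives that tested them, their differences ran from -1.61 to -0.67, 0.33 to 0.96, 0.24 to 0.57 and 0.34 to 0.81.

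Of the 12 tested genes that supply lipid for particles, 1 was higher and 4 lower in germ-free livers (median -0.18). Ces1d, a lipid droplet and microsomal hydrolase, fell by 0.94 (-0.94 ± 0.15; limma, adjusted p = 0.00117) and Pemt, which makes phosphatidylcholine, by 0.76 (-0.76 ± 0.14; limma, adjusted p = 0.00331). The enzymes of the last step of triglyceride synthesis went opposite ways: Dgat1 was lower (-0.51 ± 0.11; limma, adjusted p = 0.00956) and Dgat2 higher (0.50 ± 0.12; limma, adjusted p = 0.0129), with its other probe set at 0.75 (adjusted p = 0.00425). Of the 14 regulators of apolipoprotein genes, 2 were higher and 1 lower (median 0.17). Creb3l3, a liver transcription factor of the endoplasmic reticulum that is known to act on Apoa4, Apoa5 and Apoc2, was lower (-0.70 ± 0.11; limma, adjusted p = 0.00101). Those members were called higher, and a part of Creb3l3 in their values was not tested. Rxra, the common partner of nuclear receptors, was higher (0.67 ± 0.19; limma, adjusted p = 0.0337), as was Nr2f2, a nuclear receptor that competes at the same sites (0.34 ± 0.11; limma, adjusted p = 0.0488; other probe set 0.02, adjusted p = 0.952).

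With 1 animal left out, Sar1b, Sdc1, Mylip, Ces1d, Pemt and Creb3l3 passed in every such fit. Fgf21 (adjusted p = 0.0737) and Dgat1 (0.0537) were lost without germ-free animal 3. Dgat2 was lost without germ-free 3 or 4 (up to 0.0617), and Celf2 without germ-free 4 or conventional 8 (up to 0.0875). Hnrnpab was lost without germ-free 1 or 3 or conventional 6 or 7 (up to 0.0969), and Rxra without germ-free 3 or 4 or conventional 6 or 7 (up to 0.117). Ndst1 was lost without germ-free 3 or 4 or any conventional animal (up to 0.135), and Nr2f2 in all fits but those without germ-free 1, antibiotic 14 or antibiotic 15 (up to 0.136). With the actin ratio as a covariate Sar1b (limma, adjusted p = 0.0851), Sdc1 (0.0814), Dgat1 (0.0680), Dgat2 (0.0906), Celf2 (0.0967), Rxra (0.145), Ndst1 (0.186) and Nr2f2 (0.186) were lost. Quantile normalization lost Hnrnpab (limma, adjusted p = 0.0764), Ndst1 (0.0997) and Rxra (0.0641). Ces1d, Pemt and Creb3l3 passed in all 24 alternatives, and Mylip in all 23 that tested it.

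**Figure D5:**
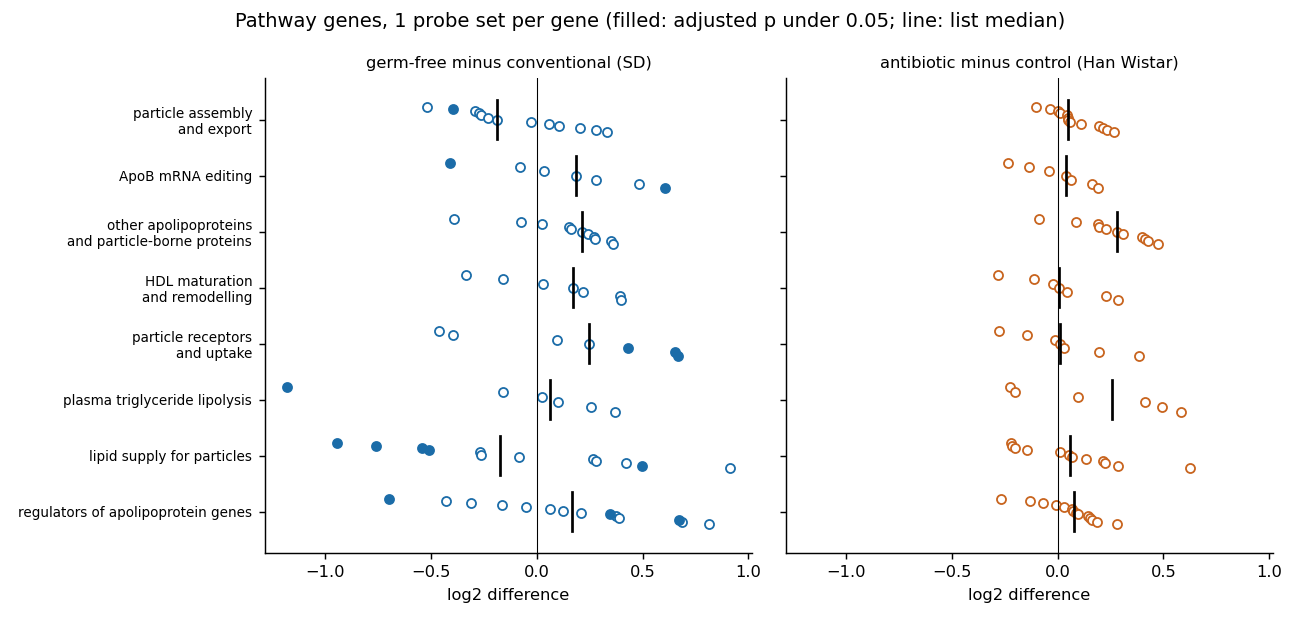
Log2 difference of the tested genes of the 8 pathway lists, 1 point per gene, for germ-free minus conventional (left) and antibiotic minus control (right); filled points passed at an adjusted p under 0.05 and black lines are list medians. Filled points appear in 6 of 8 lists in germ-free livers and in none after antibiotics.

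The genes closest in pattern to the called members were found by the root mean square difference, over the 12 animals, between log2 values taken minus the mean of the strain's control group. Nearest to the dimmer Apob were Cttn (0.11), Rae1 (0.13) and Mtus1 (0.14), each also called higher in germ-free livers (adjusted p = 0.00339, 0.00644 and 0.00154 by limma). Nearest to Apoa5 were C4bpa (0.07), Sdc2 (0.07) and Rnf114 (0.08), of which Sdc2 and Rnf114 were called higher there (adjusted p = 0.0200 and 0.0136 by limma) and C4bpa was not (0.103). Nearest to Apoa2 were Hpx (0.07), Ass1 (0.07) and Rup2 (0.09). None of them was called in germ-free livers (adjusted p = 0.0860, 0.0515 and 0.0732 by limma), and none was called after antibiotics (log2 differences of 0.41, 0.41 and 0.39). These distances are descriptions and carry no test.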

How the data were processed

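The authors deposited a table of intensities on a linear scale, without detection calls, for 12 rat livers. The values are MAS5 intensities, per the submitters' processing notes; no version is given there. Trimmed means (2% off each end) were equal across arrays, so no rescaling was done. The 57 control probe sets were left out. Of the other 31042, 20826 had 1 symbol, 436 several and 9780 none; symbols follow the platform annotation, updated to GRCr8. The 15523 whose mean signal reached the median (19.67) were kept. Their log2(signal + 16) values entered limma 3.58.1 (R 4.3.3; lmFit, then eBayes with trend) in a model of the 4 group means. This gave 8 residual and 5.96 prior degrees of freedom and a median standard error of 0.15, and precision is limited by how few arrays there are. P-values are two-sided and adjusted by Benjamini-Hochberg over all 15523. Each label names a separate animal. The fit was tested on simulated data.

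The member genes, gene lists and tests were chosen with earlier results of these data known. Named genes are every member, then up to 4 called genes per list by smallest p (the brightest probe set per gene), and the 3 genes of most similar pattern for the 3 called members of largest difference. The 24 alternatives were offsets of 1 and 64, no filter, quantile normalization, a filter at the 75th percentile, median centring, no intensity trend, a robust prior, array weights, the brightest probe set per gene, the actin ratio as a covariate, each comparison's own 6 arrays, and each of 12 animals left out. Promoters are from RefSeq.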

Additional observations from a re-analysis of the deposited data

Results flagged for a closer look

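The germ-free and the antibiotic difference of the dimmer Apob probe set stood apart by 0.90 on the log2 scale (limma, adjusted p = 0.0356). For Mttp every germ-free animal lay below and every antibiotic-treated animal above the controls of its strain. The difference between the comparisons was -0.53 and did not pass (limma, adjusted p = 0.0841). Over the 538 other probe sets at least as bright as Mttp, the median of that difference was -0.16, with 47 called lower and 5 higher. After antibiotics their median difference was 0.21, against 0.17 for Mttp, and 42.4% were apart from the controls on the higher side.

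Among the pathway genes, 7 had differences between the comparisons that passed in limma. These were Ces1d at -1.16 (adjusted p = 0.00633), Creb3l3 at -0.86 (adjusted p = 0.00559), Sar1b at -0.59 (adjusted p = 0.0161), Fgf21 at -1.60 (adjusted p = 0.0356), Pemt at -0.77 (adjusted p = 0.0401), Celf2 at 0.84 (adjusted p = 0.0436; its other probe set 0.48, adjusted p = 0.307) and Apoc4 at -0.55 (adjusted p = 0.0439). Ces1d, Creb3l3 and Sar1b passed in all 12 fits with an animal left out. Fgf21 and Pemt were called in 4 of these 12, and Celf2 and Apoc4 in 2. With the actin ratio as a covariate Ces1d (limma, adjusted p = 0.0587), Sar1b (0.101), Fgf21 (0.0759), Celf2 (0.1435), Apoc4 (0.208) and Pemt (0.210) did not pass. After quantile normalization Celf2 (limma, adjusted p = 0.0609) and Apoc4 (0.0699) did not pass, and after median centring Celf2 (0.0577) did not. Creb3l3 passed in all 23 alternatives that tested it. Apoc4, an apolipoprotein gene beside Apoc2, read 3270.3 ± 351 (SD, n = 3) in germ-free, 3443.5 ± 291 in conventional, 1967.6 ± 50.1 in control and 2743.5 ± 220 in antibiotic-treated livers. Strain and experiment cannot be told apart in any of these differences. No test for a single outlying animal was run within groups of 3.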

How the results depend on the processing

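Of the members, the dimmer Apob kept its germ-free call in 21 of the 22 alternatives that tested it, Apoa2 in 17 of 24, Apoa5 in 15, Apoc2 in 12 and Apoa4 in 9; Mttp gained one in 3. The cause of each change below was not tested, except that fewer probe sets were tested under the stricter filter and with 1 probe set per gene, and fewer arrays in the fits on 6. Members called in germ-free livers numbered 5, but 1 with no filter, 3 after quantile normalization, 2 after median centring, 2 with no intensity trend, 1 with the actin covariate, 2 on the comparison's own 6 arrays and 1 to 5 with an animal left out. All probe sets called there numbered 1901, but 1226 with 1 probe set per gene, 855 with the actin covariate and 1006 to 2028 with an animal left out. After antibiotics 3 were called, but 1 under the stricter filter or on 6 arrays, 25 with array weights (1 a member) and 1 to 9 with an animal left out. Differences between the comparisons numbered 781, but 496 with no filter, 1229 with array weights, 300 with the actin covariate and 435 to 850 with an animal left out. Members among them went from 1 to 0 with no filter or the actin covariate, and to 0 to 1 with an animal left out. Under the stricter filter or with 1 probe set per gene they were also 0, but there the dimmer Apob was not tested. Directions reversed for germ-free Apoa1 (-0.0851 quantile normalized, -0.0494 median centred, -0.0116 to 0.11 with an animal left out) and Apoe (-0.0097 quantile normalized). They reversed after antibiotics for Apoa4 (-0.0406) and Apoa5 (-0.0491) when quantile normalized, and for the dimmer Apob with the actin covariate (0.0086) and with an animal left out (-0.11 to 0.0348). For the difference between the comparisons, quantile normalization turned Apoa2 (0.0777), Apoc2 (0.0389), Apoc3 (0.0548) and Apom (0.10), the actin covariate Apom (0.13), and leaving out an animal Apom (-0.10 to 0.10). No paired analysis was possible because the groups compared share no animal numbers. Signals near the filter are little above background, which limits the fainter Apoe probe set.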
